A study of Mus musculus with 4 samples.

Results

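Type I hair keratins were followed along the hair follicles of mouse dorsal skin in spatial transcriptomics data. The 7 genes *Krt31*, *Krt32*, *Krt33a*, *Krt33b*, *Krt34*, *Krt35* and *Krt36* were chosen by name among 32286 features. Their levels were read by distance from the epidermis and by tissue region. The assay was Visium, in which the RNA of a frozen section is captured on a slide by barcoded spots, and each count is traced to a spot. Spots are small regions of tissue and hold RNA from several cells, often of more than 1 type. All samples were 4 slices of skin from the same 3 mice, with the genotype Krox20-CreERT; R26-tdTomato, induced with 4-hydroxytamoxifen at P2 and collected at P38. *CreERT* was inserted at *Krox20* and is therefore driven by that promoter, and the R26 reporter gives *tdTomato* after recombination. Every slice shared the genotype, the treatment and the age, and no control group was analysed here. The comparisons were therefore between positions in the tissue. The slices (replicates 1 to 4) are technical replicates, and their spread does not cover differences between mice. The study mentions 1 section left out for distorted structure, and which deposited spots it would hold is not given, so all 4 slices were used.

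Hair keratins are the structural proteins of the hair shaft. Type I (acidic) hair keratins pair with type II (basic) hair keratins into intermediate filaments, which are then embedded in keratin-associated proteins, encoded by the *Krtap* genes, and crosslinked as the cells harden. New shaft cells arise in the matrix at the base of a growing follicle and move up toward the surface as they differentiate, so the distance from the base follows the time since a cell left the matrix. In human follicles *KRT35* marks the matrix, precortex and cuticle, *KRT32* the cuticle, and *KRT31*, *KRT33A*, *KRT33B*, *KRT34* and *KRT36* the cortex, the body of the shaft.

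All 7 genes lie on the minus strand of chromosome 11 in GRCm38, between 100011195 and 100105626. From the lower to the higher coordinate the order is *Krt33a*, *Krt33b*, *Krt34*, *Krt31*, *Krt32*, *Krt35* and *Krt36*, and the only other annotated gene within the span is *Gm11571*. It lies on the opposite strand from 100052286 to 100085983 and overlaps *Krt32* (100080848 to 100088226). *Gm11571* had 270 UMIs in all, against 17283 for *Krt32*. The proximal promoters are shown because the genes are neighbours that peaked at different depths. RefSeq promoters of GRCm38.p6 (250 bases before and 50 after the start, on the strand of the gene) were matched for 5 of the 7 genes. They lay at chr11:100041505-100041804 for *Krt34*, chr11:100029819-100030118 for *Krt33b*, chr11:100050502-100050801 for *Krt31*, chr11:100088220-100088519 for *Krt32* and chr11:100105577-100105876 for *Krt36*. The 2 others are *Krt33a* and *Krt35*. Capitals mark TATAAA (known as the TATA box), the motif CCAAT (bound by NF-Y), the motif TTTAT (letters found in sites of HOXC13) and the motif CTTTGA (letters found in sites of LEF1), searched on both strands. The reverse of TTTAT overlaps TATAAA.
*Krt34* promoter: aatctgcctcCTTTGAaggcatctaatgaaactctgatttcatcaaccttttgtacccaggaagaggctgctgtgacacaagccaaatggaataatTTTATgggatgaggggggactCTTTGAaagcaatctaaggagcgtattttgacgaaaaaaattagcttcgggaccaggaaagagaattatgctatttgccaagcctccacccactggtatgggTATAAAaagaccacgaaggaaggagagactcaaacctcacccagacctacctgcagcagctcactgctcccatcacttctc
*Krt33b* promoter: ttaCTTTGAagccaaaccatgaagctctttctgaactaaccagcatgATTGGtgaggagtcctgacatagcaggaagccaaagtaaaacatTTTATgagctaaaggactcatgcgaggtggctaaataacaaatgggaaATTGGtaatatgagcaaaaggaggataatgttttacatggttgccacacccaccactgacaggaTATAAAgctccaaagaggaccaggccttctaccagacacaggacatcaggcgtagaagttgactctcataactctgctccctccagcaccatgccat
*Krt31* promoter: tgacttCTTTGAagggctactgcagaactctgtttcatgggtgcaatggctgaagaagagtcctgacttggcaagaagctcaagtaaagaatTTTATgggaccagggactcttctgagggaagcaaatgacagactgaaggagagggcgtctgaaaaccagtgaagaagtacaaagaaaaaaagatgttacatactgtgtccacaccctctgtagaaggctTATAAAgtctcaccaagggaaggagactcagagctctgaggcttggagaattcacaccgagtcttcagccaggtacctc
*Krt32* promoter: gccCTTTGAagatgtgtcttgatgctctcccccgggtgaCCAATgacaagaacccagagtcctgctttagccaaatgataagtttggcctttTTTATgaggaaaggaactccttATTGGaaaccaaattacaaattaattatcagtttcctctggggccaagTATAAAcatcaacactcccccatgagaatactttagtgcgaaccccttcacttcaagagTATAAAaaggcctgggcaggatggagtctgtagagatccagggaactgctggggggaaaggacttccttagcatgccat
*Krt36* promoter: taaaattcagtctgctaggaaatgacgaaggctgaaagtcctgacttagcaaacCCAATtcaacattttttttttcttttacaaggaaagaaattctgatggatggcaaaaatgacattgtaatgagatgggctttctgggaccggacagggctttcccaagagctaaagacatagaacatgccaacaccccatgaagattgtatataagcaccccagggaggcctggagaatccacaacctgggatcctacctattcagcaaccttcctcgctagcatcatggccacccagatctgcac
The 4 promoters of *Krt31*, *Krt32*, *Krt33b* and *Krt34* each held TATAAA, with TTTAT and with CTTTGA. The TATA box began 29 bases before the start in *Krt31* and *Krt32*, 31 in *Krt34* and 47 in *Krt33b*, and *Krt32* held a second copy further away. TTTAT stood between 154 and 159 bases before the start in the same 4 promoters, and the most distant CTTTGA between 240 and 247 bases. Only CCAAT was matched in the window of *Krt36*. The search was for exact letters, so a similar stretch such as tatataag, which this window holds, was not counted. The lack of a match therefore does not show that *Krt36* has no TATA box. Among 32851 promoters of the same length, 13.6% held TATAAA, 40.0% TTTAT, 16% CTTTGA and 37.4% CCAAT. Position by position, without gaps, the 5 windows were identical at 21.3% to 34.0% of bases.

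Transcripts of the closest relatives could share reads. Of the 451 stretches of 50 bases in the last 500 bases of the *Krt31* transcript, 27 were also in a *Krt33b* transcript, and 13 of 451 the other way. No other pair of the 7 shared such a stretch. The levels of *Krt31* and *Krt33b* therefore carry some uncertainty that the others do not.

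The slices held 19393026 to 26910422 UMIs. Of 6420 spots, 6411 had at least 250 genes and were kept, with medians of 11662 to 14627 UMIs per slice. Spot barcodes repeat between the areas of a slide, and 1842 of 2485 were found in more than 1 slice. The unit of level is CPM (counts per 1000000), a gene's UMIs over all UMIs in the spots concerned. A UMI counts 1 captured molecule whatever its length, so CPM were not scaled by length. The slices stood apart in the shaft genes. Over all spots *Krt31* had 593, 523, 348 and 190 CPM in replicates 1 to 4, and the ratio of replicate 1 to replicate 4 (3.12) was the highest of the 1363 genes with at least 100 CPM, whose median ratio was 0.966. *Krt33b* fell from 1050 to 427 CPM between the same slices, *Krt34* from 1859 to 967 and *Krt33a* from 2495 to 1574. *Krt35* (449, 441, 438 and 388 CPM) and *Krt36* (38.2, 34.5, 35.9 and 31.3 CPM) differed little. *Krtap* genes moved with the first group, with a median ratio of 1.46 over 35 genes, and so did the type II gene *Krt83* (2.34). What set these slices apart was not tested, and fewer shaft cells in a slice cannot be told apart from less RNA per shaft cell. The genes did not shift alike even within 1 region described below, led by *Krtap11-1*. There *Krt31* had 1488 CPM in replicate 1 and 475 in replicate 4, *Krt32* 671 and 463, and *Krt35* 594 and 617. Why the genes differed in this was not tested either.

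Depth was measured in grid steps from a spot to the closest epidermal spot. This region held 877 spots, all 7 epidermal markers were raised in it, and *Lor*, *Krt10* and *Krt1* were among its 10 leading genes. Steps 0 to 8 had at least 20 spots in every slice. Each type I hair keratin was highest between steps 3 and 6 and lower above and below. The genes did not peak together.

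*Krt34* peaked at step 3 in replicate 1 and at step 4 in the other slices and in the mean profile. At step 3 its levels were 3813, 2403, 2198 and 1905 CPM in replicates 1 to 4, and at step 4 they were 3303, 2876, 2389 and 1929 CPM. By step 6 they had dropped to 805, 837, 481 and 463 CPM. Every slice was lower at step 6 than at step 4, and replicate 1 was the highest slice at steps 3 to 5. *Krt33a*, the most abundant of the 7 in CPM, peaked at step 4, where the slices held 4219, 3335, 3065 and 3073 CPM. Replicate 2 alone had its maximum at step 5 (3401 CPM). The closely related *Krt33b* had the same peak steps in each slice, at a lower level, with 1218 ± 379 CPM at step 4 (SD, n = 4 slices). In replicates 3 and 4 and in the mean profile, *Krt34*, *Krt33a* and *Krt33b* all peaked at step 4.

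The mean profiles of *Krt31* and *Krt32* peaked at step 5, with 725 ± 322 and 363 ± 49.1 CPM (SD, n = 4 slices). The slices of *Krt31* ranged from 327 to 1012 CPM at this step, a wide spread, whereas those of *Krt32* lay between 289 and 391 CPM. In replicate 4 *Krt31* was slightly higher at step 4 (331 CPM) than at step 5 (327 CPM). *Krt36* was the least abundant gene in CPM. At step 5 it had 70.3, 55.1, 60.3 and 63.7 CPM, and replicate 2 had a slightly higher value at step 6 (55.5 CPM). *Krt35* stayed under 200 CPM on average down to step 3. Its levels were 244, 148, 205 and 195 CPM at step 3, 748, 711, 646 and 779 CPM at step 5, and 745, 816, 740 and 619 CPM at step 6. In each slice, both deeper steps were more than 2 times higher than step 3. *Krt35* was the only member whose mean profile peaked at step 6.

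**Figure D1:**
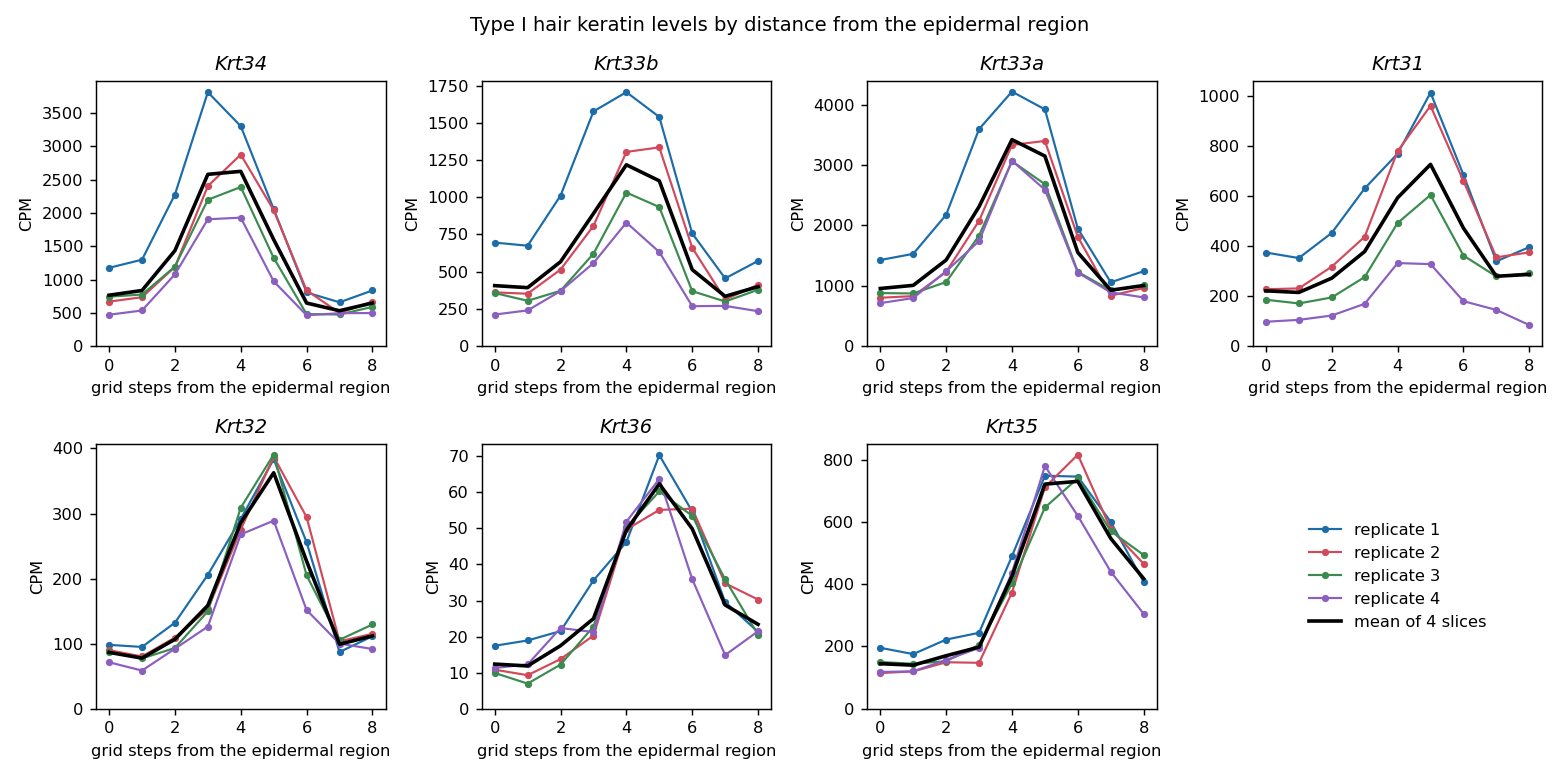
CPM of each gene (y axis) by grid steps from the epidermal region (x axis), with 1 coloured line per slice and the mean of 4 slices in black. The maximum lies at step 3 or 4 for Krt34 and at step 5 or 6 for Krt35, and replicate 1 is the highest slice for Krt34, Krt33b and Krt33a at steps 0 to 5.

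To order the genes, the mean depth was taken as the CPM-weighted mean of steps 1 to 8. From the surface downward it was 3.93 ± 0.12 steps for *Krt34*, 4.31 ± 0.14 for *Krt33b*, 4.35 ± 0.12 for *Krt33a*, 4.64 ± 0.16 for *Krt31*, 4.67 ± 0.09 for *Krt32*, 4.92 ± 0.26 for *Krt36* and 5.35 ± 0.16 for *Krt35* (SD, n = 4 slices). Of the 21 pairs of genes, 20 had the same order in all 4 slices. *Krt35* lay 1.42 ± 0.12 steps deeper than *Krt34*, the largest distance of a pair, and 0.43 ± 0.10 steps deeper than its neighbour *Krt36*. These distances depend on the weights. With weights in log2(CPM + 1) they were 0.29 and 0.02 steps, and with the level of the muscle gene-led region subtracted 2.26 and 0.76 steps. Neighbours were not all separated. *Krt33a* was only 0.04 ± 0.03 steps deeper than *Krt33b*, and *Krt32* was deeper than *Krt31* in 2 slices and shallower in the other 2 (difference 0.03 ± 0.10). *Krt36* was 0.25 ± 0.19 steps deeper than *Krt32*, with a smallest difference of 0.01. With 4 slices an exact sign-flip test cannot go below a p of 0.13, the share of 2 among 16 sign assignments. The two-sided exact p had this smallest value for each of the 20 pairs, or 0.131 after Benjamini-Hochberg adjustment over the 21 pairs, and the exact p was 0.75 for *Krt31* and *Krt32*. With any 1 slice left out, 20 pairs again had 1 order in all slices that remained. In 11 connected pieces of tissue, a split chosen after seeing the data, *Krt34* was shallower than each of the other genes in all 11 pieces, whereas *Krt33a* was deeper than *Krt33b* in 6 and *Krt32* deeper than *Krt31* in 6. The pieces are parts of the same 4 slices and not further replicates. The thinnest step of a piece held from 0 to 56 spots, and an empty step counted as 0 CPM. Along the chromosome, the gene at the higher coordinate had the larger mean depth in 17 of the 21 pairs. This count takes in *Krt31* and *Krt32*, which the slices did not order alike. Pairs of 7 genes share members and are not separate results, and a link of position with depth was not tested.

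**Figure D2:**
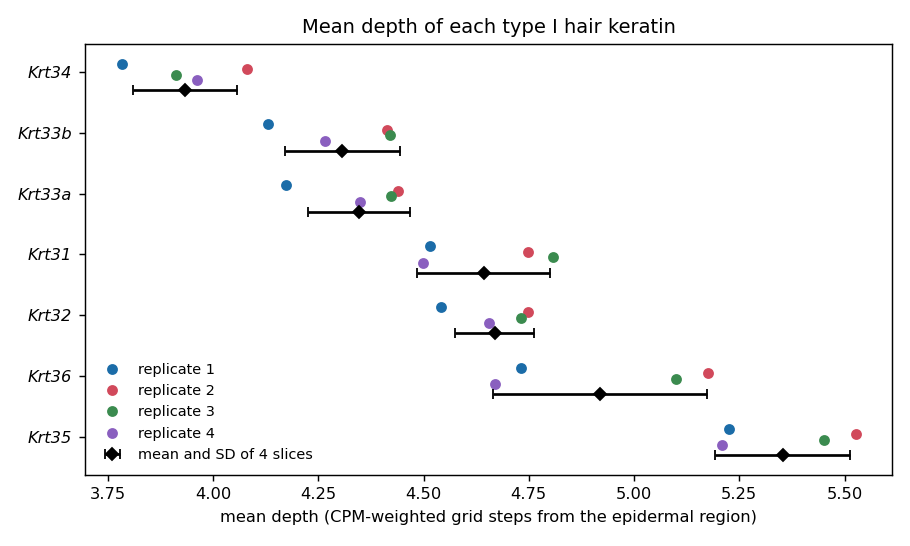
Mean depth of each gene in grid steps from the epidermal region (x axis), with 1 coloured point per slice and the mean with its SD as a black diamond. The genes run from Krt34 at 3.93 steps to Krt35 at 5.35 steps, and the points of Krt33b and Krt33a, and of Krt31 and Krt32, overlap.

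Zones were then compared across all genes, to ask which genes were higher or lower in one part of the depth than in another. UMIs were summed per slice over steps 1 and 2 (superficial zone), 3 and 4 (middle zone) and 5 to 8 (deep zone), and tested in edgeR with the slice as a block over 12839 genes. All 7 genes rose from the superficial to the middle zone, where 24.1% of all genes were called higher and 24.5% lower (48.5% in either direction). *Krt34* had 1778, 979, 1002 and 805 CPM in the superficial zone of replicates 1 to 4, and 3538, 2654, 2299 and 1917 CPM in the middle zone, and the zones did not overlap. Its log2 fold change was 1.31 ± 0.07 (SE), with an edgeR adjusted p of 1.59e-12. The other 6 genes had log2 fold changes between 1.13 (*Krt35*) and 1.43 (*Krt36*), so that with these zones the rise was of similar size in the family. Over the alternatives it ranged from 0.54 to 1.77 for *Krt35* and from 1.26 to 1.44 for *Krt33a*. Each slice rose in all of these genes, but the zones of *Krt31* and *Krt33b* overlapped. *Krt33b* had 840 CPM in the superficial zone of replicate 1 and 696 CPM in the middle zone of replicate 4.

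Below the middle zone the genes parted. From the middle to the deep zone, *Krt34* fell by 1.61 ± 0.07 on the log2 scale (edgeR adjusted p = 2.14e-14), to 1201, 1049, 767 and 654 CPM. *Krt33a* had 3933, 2744, 2481 and 2415 CPM in the middle zone and 2337, 1860, 1622 and 1606 CPM in the deep zone, and the zones did not overlap. It fell by 0.73 ± 0.06 and *Krt33b* by 0.82 ± 0.07 on the log2 scale (edgeR adjusted p = 4.87e-10 and 7.01e-10). Each slice of *Krt33b* was lower in the deep zone, but its zones overlapped. It had 696 CPM in the middle zone of replicate 4 and 933 CPM in the deep zone of replicate 1. *Krt35* rose instead. Its middle zone held 377, 267, 309 and 318 CPM and its deep zone 675, 673, 650 and 616 CPM, a log2 fold change of 0.94 ± 0.07 (edgeR adjusted p = 1.24e-10). Each slice was higher in the deep zone, and the zones did not overlap. The 3 genes of intermediate depth also overlapped between the zones. *Krt32*, for example, had 252, 218, 234 and 198 CPM in the middle zone and 244, 243, 237 and 185 CPM in the deep zone. *Krt31* (log2 fold change -0.14 ± 0.06), *Krt32* (-0.10 ± 0.05) and *Krt36* (0.19 ± 0.09) did not pass the test, with edgeR adjusted p-values of 0.0542, 0.118 and 0.0694. These 3 calls were not firm. *Krt36* was called higher in 10 of 19 alternatives, among them without replicate 4 (0.23, edgeR adjusted p = 0.0424), and lower in 2. *Krt31* was called lower in 4 alternatives, and *Krt32* lower in 3 and higher in 2. Both were called lower without replicate 2 (-0.16 each, edgeR adjusted p = 0.0319 and 0.0198). Of the 7 genes, 1 was called higher and 3 lower, where 29.5% and 28.7% of all genes were (58.3% in either direction). The median of the 7 was -0.14, and that of all genes tested 0.02.

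Against the superficial zone, 6 genes were higher in the deep zone and *Krt34* was lower, where 35.3% of all genes were called higher and 36.4% lower (71.7% in either direction). *Krt35* changed most. Its superficial zone held 198, 136, 149 and 138 CPM, and the log2 fold change was 2.07 ± 0.07 (edgeR adjusted p = 2.22e-16). *Krt36* followed with 1.62 ± 0.11, *Krt32* with 1.28 ± 0.06, *Krt31* with 1.00 ± 0.06, *Krt33a* with 0.63 ± 0.06 and *Krt33b* with 0.46 ± 0.07. The order of these values was that of the mean depths, and both measures come from the same counts. Levels in the superficial zone were also set beside those in the muscle gene-led region. *Krt35* had 392 CPM on average in that region against 155 ± 29.2 in the superficial zone, and *Krt31*, *Krt32* and *Krt36* were also lower in the superficial zone than there, whereas *Krt34* had 779 CPM in that region and 1141 ± 434 in the superficial zone (SD, n = 4 slices). The part of background RNA in the folds against the superficial zone was not tested. How much follicle tissue the muscle gene-led spots held was not tested either. *Krt34* fell by 0.30 ± 0.07 on the log2 scale (edgeR adjusted p = 0.000679), but replicate 2 went the other way, from 979 to 1049 CPM, and the zones overlapped between slices. Without replicate 1 the log2 fold change was -0.20 (edgeR adjusted p = 0.0279).

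The deep zone also held muscle. Spots of the region led by *Myl1*, *Ttn* and *Cox6a2* made up 26.2% to 31.9% of its spots in a slice, against 0% to 1.81% in the other zones, and 6 of 6 muscle markers rose from the middle to the deep zone, from a summed 708 to 1343 CPM to a summed 7016 to 9706 CPM. Without these spots, an alternative chosen after seeing the data, the last step was 7 and the deep zone was steps 5 to 7. *Krt35* then rose by 1.16 from the middle to the deep zone, and *Krt34* fell by 1.49. *Krt36* (0.42, edgeR adjusted p = 0.000381) and *Krt32* (0.17, edgeR adjusted p = 0.0152) were called higher, and *Krt31* stood at 0.05. The loss of these spots and the shorter deep zone were not tested apart. The smaller changes also moved with the choice of epidermal spots, which moved the zone limits too, and these were not tested apart. With epidermal spots picked by marker sum, the zones were steps 1 to 3, 4 to 6 and 7 to 9. *Krt36* was then lower in the deep than in the middle zone (-0.41), and *Krt33b* in the deep zone no longer differed from the superficial zone (-0.19, edgeR adjusted p = 0.0912). The fall of *Krt34* against the superficial zone was lost in 5 alternatives, among them spots thinned to 5500 UMIs (-0.00, edgeR adjusted p = 0.958).

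**Figure D3:**
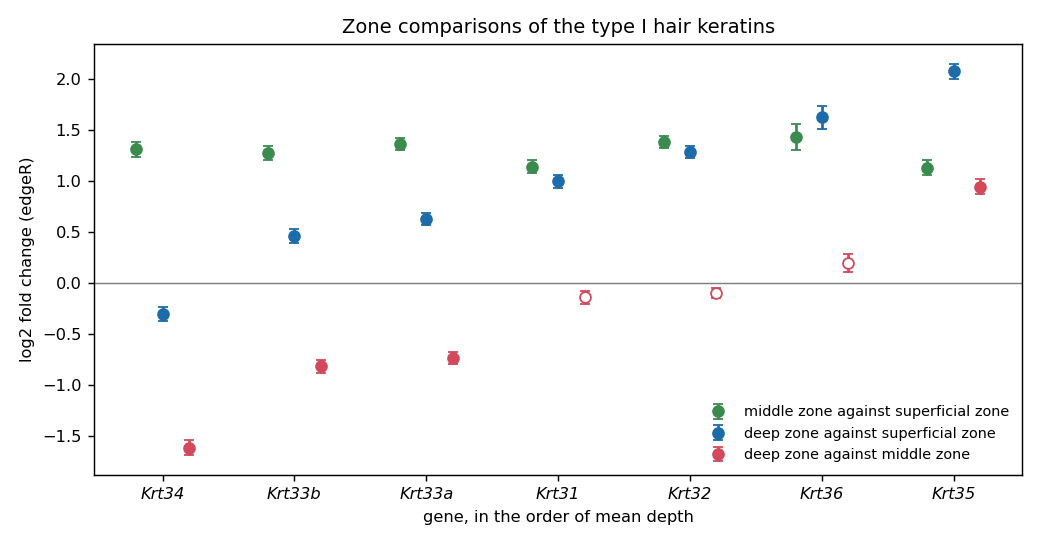
Log2 fold changes from edgeR (y axis) of the 7 genes, ordered from shallow to deep (x axis), for the 3 zone comparisons in different colours. Bars are the SE, and filled points passed an adjusted p of 0.05. The change from the middle to the deep zone runs from -1.61 for Krt34 to 0.94 for Krt35.

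The share of each gene among the UMIs of the 7 was taken next, since it is not scaled by RNA of genes outside the 7. The 7 shares add up to the whole, so a loss in any gene raises the shares of others. The 7 changes and their p-values are therefore not separate results. *Krt34* made up 34.0% ± 1.79 of them in the superficial zone, 34.1% ± 0.983 in the middle zone and 18.8% ± 1.25 in the deep zone (SD, n = 4 slices). *Krt35* went the other way, from 4.85% ± 0.825 to 13.9% ± 2.45. The changes from the superficial to the deep zone, -15.2 ± 2.46 and 9.08 ± 1.64 percentage points, had the same sign in 4 of 4 slices. *Krt31* gained 2.60 points, *Krt33a* 1.93, *Krt32* 1.90 and *Krt36* 0.525, also in 4 of 4 slices, while *Krt33b* changed by -0.838 ± 0.773 points and was lower in 3 of 4. The two-sided exact sign-flip p was 0.13 for each of the 6 genes with the same sign in all slices (0.146 after adjustment over the 7) and 0.25 for *Krt33b*. Within the 11 pieces of tissue, *Krt34* lost share in all 11, *Krt35* gained in all 11, and *Krt33a* gained in 10.

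**Figure D4:**
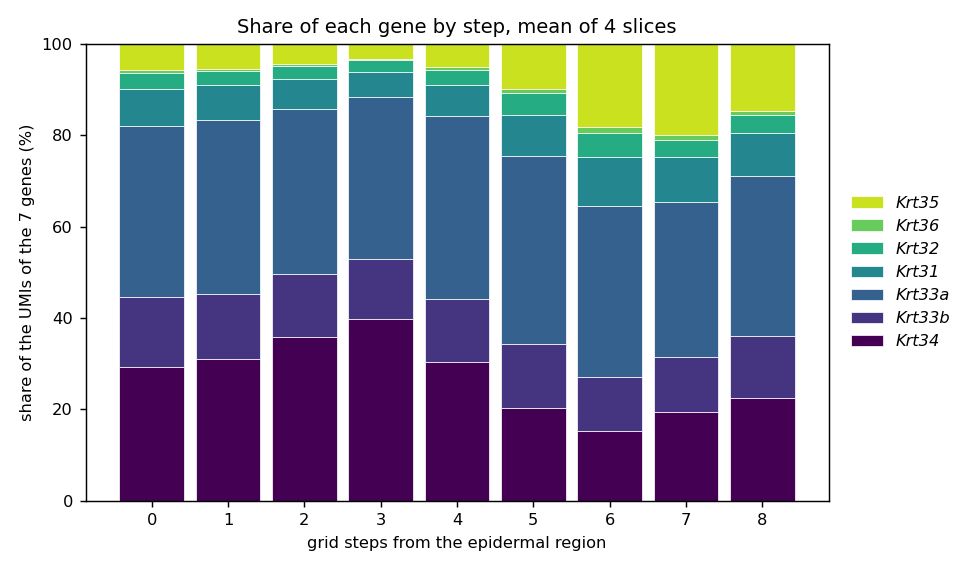
Share of each gene in the UMIs of the 7 genes in percent (y axis), by grid steps from the epidermal region (x axis), as the mean of 4 slices in stacked bars. Krt34 takes its largest share at step 3 and Krt35 its largest at step 7.

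Regions were made by clustering the spots without the 7 genes, and are named by their leading genes. Because genes that vary with the hair keratins define these regions, the levels are a description. From the surface, the epidermal region (*Lce1m*, *Lor*, *Krt77*) was followed by regions led by *Serpina3j*, *Serpina3b* and *Fa2h* (227 spots, with 7 of 7 sebaceous gland markers raised), by *Atp12a*, *Car6* and *Plet1* (742 spots) and by *Slc4a1*, *Atp2c2* and *AU018091* (988 spots, with *Krt14* among its 10 leading genes). Deeper lay a region led by *Gm11596*, *Gm11563* and *Gm11568*, with *Krtap4-9* and *Krtap6-5* among its leading genes (776 spots, mean step 3.58), and a region led by *Krtap11-1*, *Krt87* and *Ly6g6d* (818 spots, mean step 4.77). A small region led by the melanocyte genes *Mlana* and *Trpm1* and by *Ptgds* followed (109 spots, mean step 5.17), then one led by *Mt2*, *Mt1* and *Wif1*, in which 7 of 8 matrix markers were raised, *Top2a* and *Cdk1* among them (624 spots, mean step 5.84). Regions led by *Hba-a1*, *Thrsp* and *Adipoq* and by muscle genes lay deepest among the larger ones. A region led by *Gm6358*, *1110057P08Rik* and *Krtap20-2* was small and shallow in depth of sequencing (127 spots, 1 of them in replicate 1, with a median of 5146 UMIs).

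Each of the 7 genes had its highest level in the same region in all 4 slices. *Krt34* was highest in the *Gm11596*-led region, with 5376, 4196, 3667 and 2984 CPM, and every slice was lower in the *Krtap11-1*-led region (1862 ± 399 CPM). *Krt33a* (4561 ± 811 CPM), *Krt33b* (1520 ± 491), *Krt31* (1065 ± 465) and *Krt32* (592 ± 90.6) were highest in the *Krtap11-1*-led region. For *Krt32* this was sharp, since its next highest level was 256 ± 26.5 CPM, in the *Mlana*-led region, and it had 160 ± 30.4 CPM in the *Gm11596*-led region. For the other genes of this group the slices overlapped with those of another region. *Krt33b* had 1265 ± 550 and *Krt33a* 3192 ± 1062 CPM in the *Gm11596*-led region, and *Krt31* had 674 ± 215 CPM in the *Mlana*-led region. *Krt35* and *Krt36* were highest in the *Mlana*-led region. *Krt35* had 2154, 2460, 1843 and 1816 CPM in it, against 667 ± 23.8 CPM in the *Mt2*-led region and 625 ± 24.6 in the *Krtap11-1*-led region. *Krt36* had 178, 167, 198 and 147 CPM in it, against 71.9 ± 4.2 in the *Krtap11-1*-led region. Among the UMIs of the 7 genes, *Krt35* took 40.3% ± 1.98 in the *Mlana*-led region and 36.4% ± 2.27 in the *Mt2*-led region, but 1.80% ± 0.369 in the *Gm11596*-led region, where *Krt34* took 44.3% ± 2.98 (SD, n = 4 slices).

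**Figure D5:**
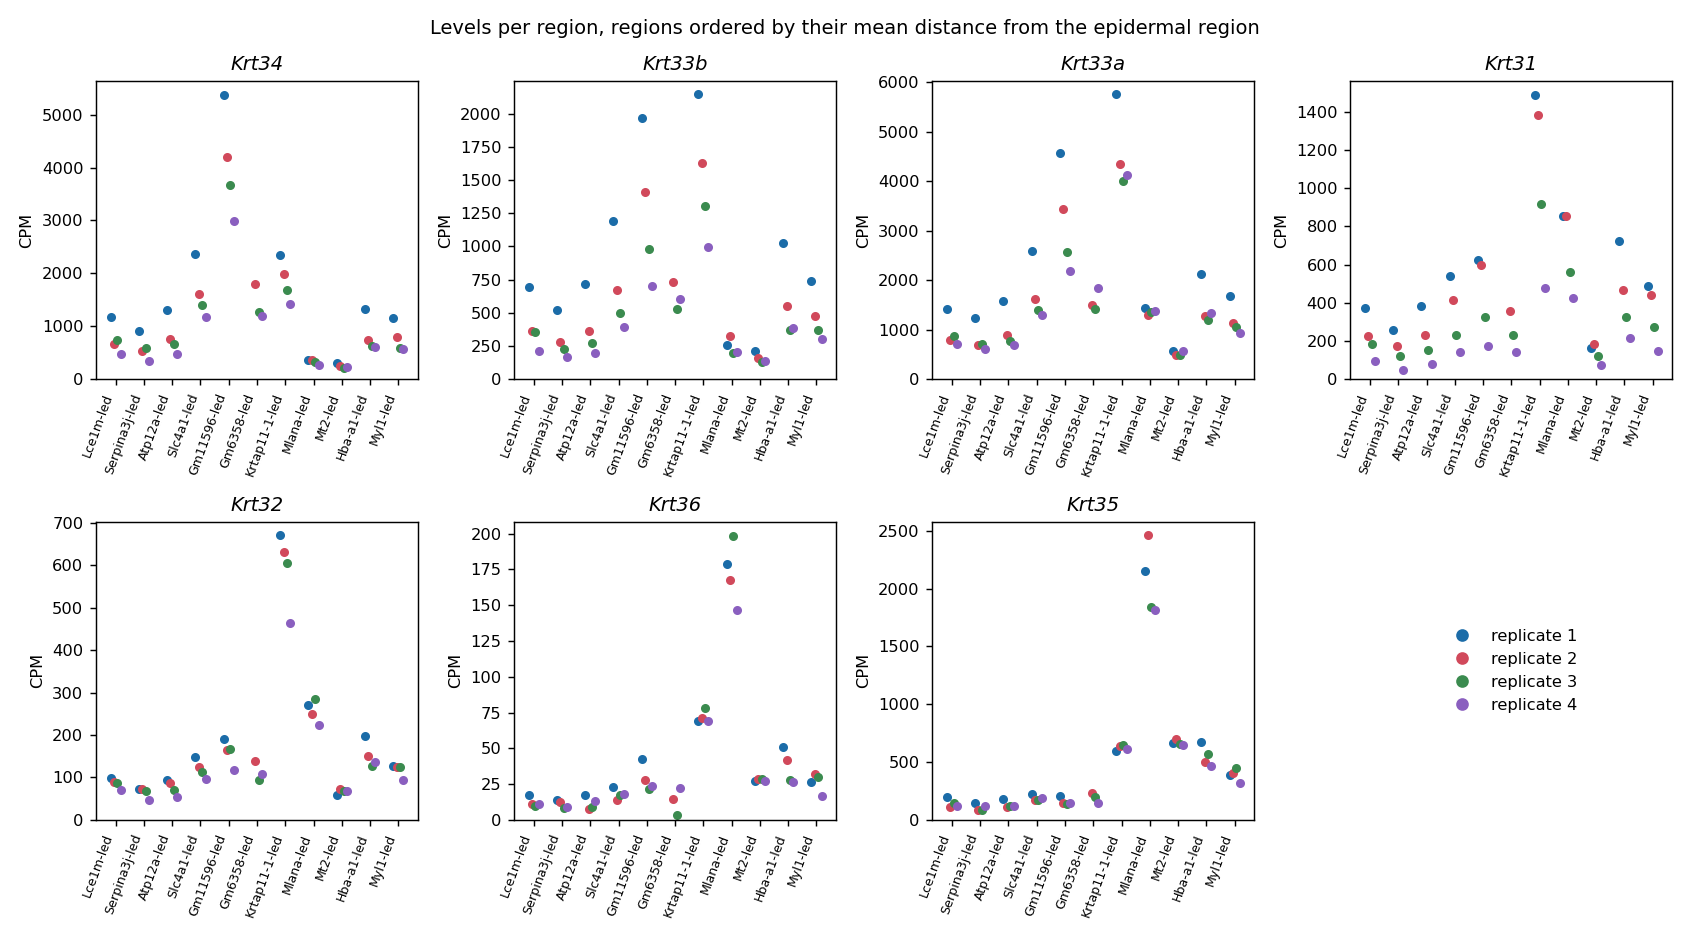
CPM of each gene (y axis) in each region of at least 100 spots, regions ordered by their mean distance from the epidermal region (x axis), with 1 point per slice; a slice with under 5 spots of a region is not drawn. Krt34 is highest in the Gm11596-led region, Krt33b, Krt33a, Krt31 and Krt32 in the Krtap11-1-led region, and Krt36 and Krt35 in the Mlana-led region.

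Hair keratin UMIs were also found in the regions led by muscle genes and by epidermal genes. In the muscle gene-led region the levels were 15.3% ± 3.16 (*Krt36*) to 31.5% ± 1.21 (*Krt31*) of those in each gene's highest region, and in the epidermal region 7.11% ± 1.95 (*Krt35*) to 25.8% ± 5.16 (*Krt33b*). Shares of spots with a UMI are given only for *Krt36*, the least abundant of the 7 in CPM. Of the spots in the *Mlana*-led region, 91.1% ± 7.97 held a *Krt36* UMI, against 30.8% ± 10.4 in the muscle gene-led region, with medians of 20890 and 14168 UMIs. With every spot thinned to 5500 UMIs, which dropped 2 and 14 spots with fewer, the shares were 53.9% ± 11 and 13.7% ± 3.75.

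Profiles were also compared with those of 8723 other genes of at least 10 CPM, by the Pearson correlation of log2(CPM + 1) over 36 sums of a slice and step. The sums of a slice share a library, so these are descriptions. Differences between slices enter r along with those between steps, so r is not likeness along depth alone. The ratio of replicate 1 to replicate 4 was 3.12 for *Krt31*, 2.46 for *Krt33b* and 2.34 for *Krt83*, against 1.32 for *Krt32* and 1.28 for *Krt87*. *Krt34* was most like the type II gene *Krt86* (r = 0.99), then *Krtap8-1* and *Krtap16-1* (0.98 each). *Krt33b* was most like the type II gene *Krt83* (0.99), *Krtap13-1* (0.99) and *Gprc5d*, an orphan receptor of hardening shaft cells (0.98). *Krt33a* was most like *Gprc5d* and *Calhm4* (0.98 each) and the type II gene *Krt81* (0.97), and *Krt32* most like *S100a3*, a calcium-binding protein of the cuticle (0.98), *Ctps* and *Krt87* (0.96 each). *Krt31* had lower values, with *Krt83* and *Mt4* at 0.89 and *Fbp1* at 0.88. *Krt35* was most like *Gm49425* (0.98), *Scd2* and *Nme1* (0.97 each), and *Krt36* most like *Tubb6* (0.95) and the inner root sheath keratins *Krt25* (0.95) and *Krt73* (0.94). Within the family, r was 0.95 between *Krt33b* and *Krt33a* and -0.05 between *Krt34* and *Krt35*.

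The other hair keratins spread over the same depths. *Krt39* and *Krt40*, further type I hair keratins, were low, with 168 and 19 UMIs in all, and *Krt39* had its highest mean level, 5.62 CPM, at step 3. Of the type II list, which pairs with the 7, 6 of 7 genes were measured, and *Krt85* was not analysed. Their mean depths were 3.54 ± 0.13 steps for *Krt84*, 3.87 ± 0.14 for *Krt86*, 4.18 ± 0.14 for *Krt81*, 4.37 ± 0.11 for *Krt83*, 4.48 ± 0.14 for *Krt87* and 4.79 ± 0.17 for *Krt82* (SD, n = 4 slices). *Krt35*, at 5.35 steps, was deeper than any of these 6 in its mean. All 6 rose from the superficial to the middle zone (24.1% of all genes were called higher). From the middle to the deep zone 5 of 6 fell (28.7% of all genes were called lower), from -0.45 (*Krt87*) to -2.64 (*Krt84*) on the log2 scale, and *Krt82* stood at -0.02 (edgeR adjusted p = 0.882).

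Genes of hardening and of the sheath around the shaft shared parts of this pattern. Among 7 tested genes of hardening and adhesion, 6 fell from the middle to the deep zone and 1 rose, where 28.7% of all genes were called lower and 29.5% higher, with the arginine-converting enzyme *Padi3* at -0.75, *Gprc5d* at -0.86 and *S100a3* at -0.31. The *Krtap* family fell further. All 49 tested members fell from the middle to the deep zone, with a median log2 fold change of -2.62, beyond the -1.61 of *Krt34*, and the mean depths of *Krtap8-1*, *Krtap15* and *Krtap22-2* were 3.94 ± 0.13, 3.67 ± 0.14 and 3.57 ± 0.22 steps. Of 7 inner root sheath keratins, 5 fell (28.7% of all genes), *Krt27* (-0.89) and *Krt71* (-0.30) among them, and *Krt25* stood at 0.06 (edgeR adjusted p = 0.332). All 8 cell cycle genes rose from the middle to the deep zone (29.5% of all genes), with *Mki67* at 0.99, *Pclaf* at 1.29 and *Birc5* at 1.08. Of 14 regulators of the shaft lineage, 7 rose and 4 fell, and the second count is at the share of all genes called lower (28.7%). *Dlx3*, a homeobox factor of the hair shaft, rose by 0.23 (± 0.05), *Hoxc13*, a factor that activates hair keratin genes, fell by 0.27 on the log2 scale (edgeR adjusted p = 6.56e-05), and the receptor *Notch1* stood at 0.10 (edgeR adjusted p = 0.0697).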

How the data were processed

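The authors deposited UMI counts per gene and spot for 4 slices, with spot positions, for spots over tissue alone. Per the file headers the counts came from Space Ranger 2.0.1, and the submitters' processing notes name the build mm10, which is GRCm38. The counts were not normalized. Spots with under 250 genes were dropped, and doublets were not called, as spots are mixtures by design. Spots were log-normalized and clustered in Seurat 5.3.0 under R 4.3.3 without the 7 genes (2000 variable genes, 30 principal components, 20 neighbours, resolution 0.7, which gave 12 clusters). Grid steps were counted in straight lines to the nearest epidermal spot. For sums per slice and zone the quasi-likelihood test of edgeR 4.0.16 was used (TMM and filterByExpr before it, Benjamini-Hochberg over all genes tested), with SE taken from the fold change and its F value. All 7 genes passed the filter. The step was tested on simulated data. The zones of a slice share its sections. Deviations from the zone means correlated at 0.150 to 0.400 between the zones of the same slice, in each of the 4, so the slice was a block. Statistics are over slices, and p-values cover the spread between these slices alone. Positions came from GENCODE M21. Named genes were the 7, the other hair keratins, the 3 of highest CPM of each further list, the 3 closest profiles of each gene and the 3 leading genes of each region, and all other names were chosen after their values were seen. The members and gene lists were chosen with earlier results of these data known. Alternatives covered the epidermal spots, the distance measure, the spot filter, thinning, clusters, each slice left out, DESeq2 1.42.0, the normalization, the low-count filter and the block. *Krt85* was not analysed here, and 1 small cluster is not reported here.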

Additional observations from a re-analysis of the deposited data

Results flagged for a closer look

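Among 43 sets of 4 slice values of the type I hair keratins (mean depths, levels over a slice, in a zone and in the highest region), 3 held a slice far from the others, and chance flags about 1 in 20 such sets. *Krt32* in replicate 4 had 152 CPM over the whole slice, against 196 to 201 CPM in the others, and 185 CPM in the deep zone, against 237 to 244 CPM. *Krt33a* in replicate 1 had 1847 CPM in the superficial zone, against 976 to 1045 CPM in the others.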

How the results depend on the processing

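The slice block changed calls. With no replicate block 8491 genes were called between the deep and superficial zones (9202 with it), 5211 between the middle and superficial zones (6233) and 6486 between the deep and middle zones (7479). Without it *Krt34* (-0.33, edgeR adjusted p = 0.293) and *Krt33b* (0.41, 0.301) no longer passed between the deep and superficial zones, nor *Krt33b* between the deep and middle zones (-0.83, 0.0514). With thinned spots 4024 genes were called between the middle and superficial zones. Leaving out 1 slice in turn gave 8615 to 8883, 5311 to 5708 and 6753 to 6970 calls. The median of all genes between the deep and middle zones went from 0.02 to 0.13 when scaled by library size alone, and higher genes then made up 63.0% of calls (50.7% with TMM), against 36.0% (49.6%) between the middle and superficial zones. *Krt34* also missed the threshold between the deep and superficial zones with relative depth (-0.12), all spots (-0.18), thinned spots (-0.00) and clusters made without hair genes (-0.14). All 7 members stayed higher in the middle than in the superficial zone under 19 alternatives. *Krt34* stayed lower in the deep than in the middle zone under all 19, and *Krt35* higher under 18, the exception being 16 clusters (0.18, edgeR adjusted p = 0.0916). With 16 clusters the zone limits moved too, to steps 1 to 3, 4 to 6 and 7 to 9. Relative depth had zones of bins 1 to 3, 4 to 6 and 7 to 10. Small changes turned. Between the deep and superficial zones *Krt33b* had -0.19 with epidermal spots by marker sum and -0.27 with 16 clusters, and *Krt33a* had 0.02 and -0.0729. Between the deep and middle zones *Krt36* had -0.41 and -0.53 with the same alternatives, and *Krt32* had 0.26 with relative depth and 0.17 without the muscle gene-led region. The number of gene pairs ordered alike was 16 to 21 over 19 alternatives, counted over all slices or, within pieces, over all 11 pieces. The alternative with steps of at least 10 spots kept the same steps and the same 6305 spots, so it could not differ. *Krt32* was shallower than *Krt31* with thinned spots (-0.0204), 16 clusters (-0.00123) and within pieces (-0.0207), and leaving out 1 slice gave -0.0168 (without replicate 4) to 0.0611. *Krt33a* lost share with depth with epidermal spots by marker sum (-1.57 points) and 16 clusters (-1.78). The share of spots with a *Krt36* UMI in the *Mlana*-led region was 53.9% thinned and 91.1% without thinning. The cause of these changes was not tested. Alternatives within pieces, without the muscle gene-led region and without the *Gm6358*-led region were chosen after seeing the data.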
